A study of Homo sapiens with 18 samples.

Results

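The cell cycle genes of the step from G1 into S phase were examined across 4 histone modifications. They are the kinases CDK6 and CDK4, the cyclins CCND1, CCND2, CCND3 and CCNE1, and the CDK inhibitors CDKN1A, CDKN1B, CDKN2C and CDKN2D, 10 of 20007 protein-coding genes of the annotation. A gene's annotated transcription start sites (TSS) were extended by 2 kb to both sides, and of the intervals that touch this window the one with the largest mean count stands for the gene in that modification. For CDK6, every interval over the gene was read as well. Cut&Tag, in which a transposase tethered to an antibody tags the DNA next to a histone modification, was carried out for H3K27ac, H3K4me3, H3K4me1 and H3K27me3 in MOLM-13, an established line of human acute myeloid leukemia cells that carry a rearranged KMT2A gene. Cells had received 100 nM PR-957 (ONX-0914), an inhibitor of the immunoproteasome subunit PSMB8, or DMSO as the diluent, for 72 h as the sample labels state it (a legend of the paper gives a shorter time). Each modification has 2 DMSO and 2 PR-957 libraries, which makes 16, and 2 IgG samples were set aside. No source used here says that the libraries came from separate cultures, so p-values measure only the spread between these libraries, which may be technical.

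The total count per library was 9984719 to 13235793 in DMSO and 9885836 to 14165777 in PR-957 for H3K27ac, and 10032503 to 11976443 and 10380816 to 12047958 for H3K27me3. For H3K4me3 it was 42037643 to 44591150 in DMSO and 30070119 to 30454212 in PR-957. For H3K4me1 the DMSO libraries held 23874111 to 30584219 counts and the PR-957 libraries 15204186 to 22790073. Both methylation marks of lysine 4 thus had lower totals after PR-957. These totals are sums over the listed intervals, which overlap, so they are not the sequencing depth. The share of intervals with an even count was higher in PR-957, at 65.3 to 70.8% against 58.5 to 64.4% in DMSO over the 4 modifications. Intervals without counts were taken as even. The part of these totals and of even counts in the differences between treatments was not tested.

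As a check of the labelled cell type, 11 of 11 myeloid marker genes had an H3K27ac interval at a TSS, against 2 of 5 T cell, 3 of 4 B cell, 1 of 4 erythroid and 1 of 4 epithelial markers. Some myeloid intervals are sparse or distant, as at ITGAM, with 20 to 48 counts, and CSF1R, 31646 bp from the canonical TSS. By DMSO level per kb, the median percentile among coding genes was 56.1 for myeloid, 32.4 for T cell and 23.0 for B cell markers. The 1 erythroid and the 1 epithelial gene stood at 77.2 and 39.3. The summed H3K27ac level of the myeloid list was 68.6 and 68.6 CPM per kb in DMSO and 59.8 and 63.9 CPM per kb in PR-957, with MEIS1 as its highest gene. MEIS1 and HOXA9 passed the test with less H3K27ac in PR-957, and no gene of the other 4 lists passed for H3K27ac. The HOXA9 interval spans 30.3 kb and also holds the TSS of HOXA10, HOXA3, HOXA6 and HOXA7, so its counts cannot be assigned to HOXA9 alone.

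As background, D-type cyclins activate CDK4 and CDK6, which phosphorylate the retinoblastoma protein and so release E2F factors, and cyclin E with its partner CDK2 completes the passage into S phase. Inhibitors of the INK4 family, such as CDKN2C and CDKN2D, bind CDK4 and CDK6 themselves, and those of the CIP/KIP family, CDKN1A and CDKN1B, bind cyclin-CDK complexes. CDK6 is known as a gene that KMT2A fusion proteins activate in leukemia. H3K27ac and H3K4me3 are typical of active promoters, H3K4me1 of enhancers and promoter flanks, and H3K27me3 of genes silenced by Polycomb, while H3K4me3 and H3K27me3 together mark promoters called bivalent.

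No member passed a false discovery rate of 0.05 in any of the 4 modifications. For H3K27ac, 0 of 10 members were called in edgeR, with 1 at an unadjusted p under 0.05, while edgeR called 0.480% of the intervals of protein-coding genes and 0.238% of all tested intervals. DESeq2 called 0 of the 4 H3K27ac members to which it gave an adjusted p (CDK6, CDKN1A, CDKN1B and CDKN2C). Its filter left the other 6 without one. Among H3K27ac intervals with an adjusted p, DESeq2 called 47 of 1280 of coding genes and 85 of 3726 in all. For H3K4me3, 0 of 10 were called by either tool and 1 had an unadjusted p under 0.05, against 0.219% of coding genes and 0.226% of all intervals called. For H3K4me1, 0 of the 9 members with an interval were called by either tool and 2 had an unadjusted p under 0.05, against 2.15% of coding genes and 1.94% of all intervals. For H3K27me3, 0 of the 2 members with an interval were called in edgeR, against 11.8% of coding genes and 5.92% of all intervals. Of these 2, 0 had an unadjusted p under 0.05. DESeq2 called 0 of 1, with no adjusted p for CCND2. Among H3K27me3 intervals with its adjusted p, DESeq2 called 360 of 1571 of coding genes and 1278 of 6524 in all. The same counts were 8 of 12291 and 34 of 54635 for H3K4me3, and 1 of 8485 and 26 of 106061 for H3K4me1. At an unadjusted p under 0.05 the share of coding genes was 9.55% for H3K27ac, 8.04% for H3K4me3, 16.9% for H3K4me1 and 22.9% for H3K27me3. With so few members, counts of 0 are close to what these background shares give. The other intervals within 2 kb of the members' TSS were not called in edgeR either, with 0 of 60 for H3K27ac, 0 of 54 for H3K4me3, 0 of 39 for H3K4me1 and 0 of 8 for H3K27me3, each count including the interval that represents the gene.

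Shifts of the members between treatments were small for H3K27ac and H3K4me3. Their median log2 fold change (PR-957 over DMSO) was -0.028 for H3K27ac, from -0.15 to 0.095, beside a median of 0.00055 over all coding genes. For H3K4me3 it was -0.014, from -0.19 to 0.13, beside -0.010. For H3K4me1 the median of the 9 members was -0.22, from -0.56 to 0.14, beside -0.077 over all coding genes with an interval. Both PR-957 libraries lay below both DMSO libraries in 4 of 10 members for H3K27ac, against 19.3% of coding genes, and above them in 0, against 19.1%. For H3K4me3 this was 4 of 10 below against 21.0%, and 1 of 10 above against 16.9%. For H3K4me1, 6 of 9 members lay below without overlap and 0 above, while coding genes as a whole were also uneven, with 32.5% below and 15.3% above. For H3K27me3, 1 of 2 members lay below, against 28.0%, and 0 above, against 20.6%.

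**Figure D1:**
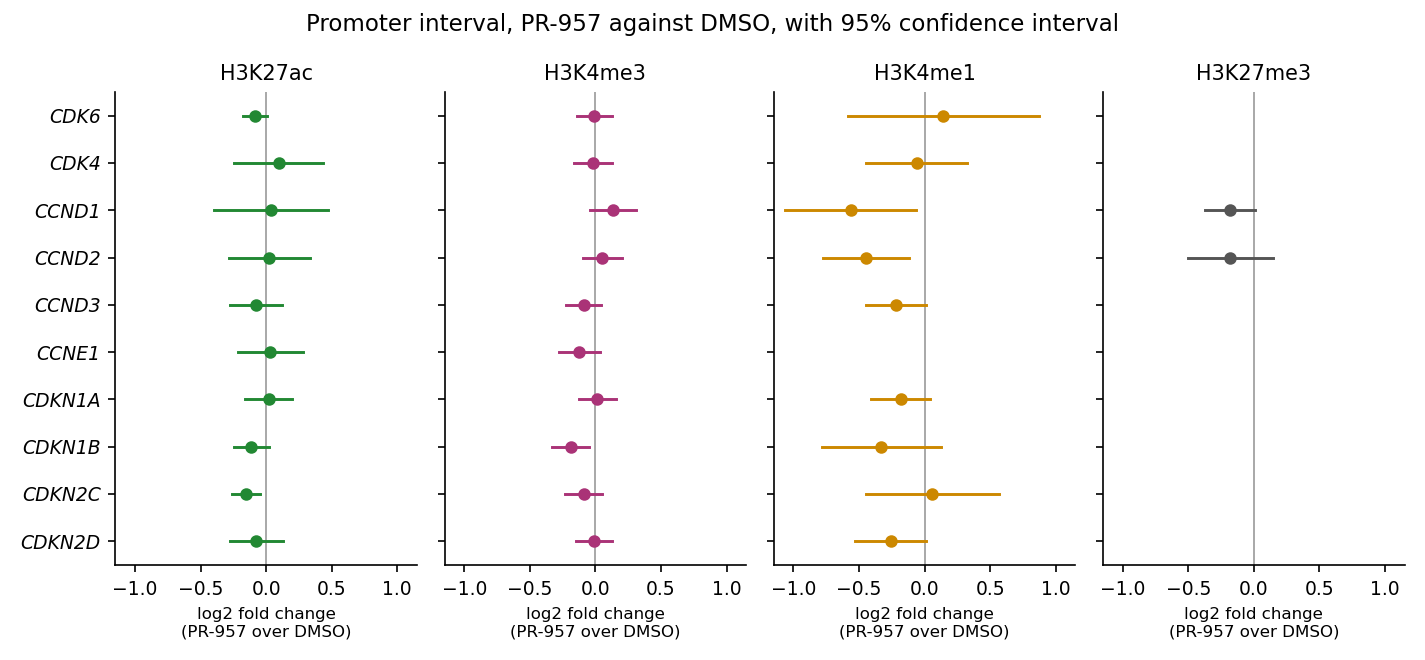
Log2 fold change (PR-957 over DMSO, horizontal axis) of the interval that represents each gene, in 1 panel per modification, with its 95% confidence interval from edgeR as a line. Estimates for H3K27ac and H3K4me3 lie between -0.19 and 0.13, those for H3K4me1 reach -0.56 at CCND1, and H3K27me3 has an interval at CCND1 and CCND2 only.

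CDK6, a kinase that partners D-type cyclins in hematopoietic cells, lies on the minus strand of chromosome 7 of hg38 from 92604921 to 92836573. The gene has 5 annotated TSS. Its H3K27ac promoter interval, chr7:92829534-92837674, spans 8.14 kb over exons 1 and 2 of the canonical transcript, wider than that of 93.2% of coding genes. The 250 bases before its RefSeq start (chr7:92836574-92836823, build GRCh38.p14, minus strand) are shown because the interval over them has one of the highest H3K27ac levels per kb of any gene, with matches to the GC box GGGCGG, on either strand, in capitals.
CDK6: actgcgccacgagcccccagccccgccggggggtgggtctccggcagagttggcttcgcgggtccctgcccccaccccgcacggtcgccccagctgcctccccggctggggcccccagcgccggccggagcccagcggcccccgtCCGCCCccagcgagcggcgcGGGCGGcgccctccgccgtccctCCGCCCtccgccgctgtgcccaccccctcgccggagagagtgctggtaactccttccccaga
The window is 80.0% G or C and holds 30 CpG, against a median of 11 over 27305 RefSeq promoter windows of the same length. It has 3 matches to the GC box, a motif that 42.3% of those windows hold. No exon of the annotation overlaps it.

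H3K27ac at this promoter was 178 and 173 CPM in the DMSO libraries and 164 and 167 CPM in the PR-957 libraries, where CPM is the count per 1e6 of the TMM-scaled library size. The 2 DMSO libraries stood above the 2 PR-957 libraries without overlap, and the log2 fold change was -0.085 (95% confidence interval -0.18 to 0.010, adjusted p = 0.694). Per length, its DMSO level of 21.6 ± 0.465 CPM per kb (SD, n = 2) was higher than in 99.5% of coding genes with an H3K27ac interval. H3K4me3 over nearly the same bases, chr7:92829114-92837685, was 71.2 and 77.2 CPM in the DMSO libraries and 69.8 and 77.7 CPM in the PR-957 libraries. Here the libraries of the treatments overlapped, with the highest and the lowest value both in PR-957, and the log2 fold change was -0.0089 (95% confidence interval -0.14 to 0.13, adjusted p = 0.990). The sign of this near-zero estimate turned with library size scaling, to 0.0017.

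The CDK6 promoter itself carried no H3K4me1 interval, and the nearest one began 20099 bp downstream of the canonical TSS. The interval that the 2 kb rule takes, chr7:92725103-92726992, lies at an internal TSS 109581 bp downstream and holds only 36 and 51 counts in DMSO and 22 and 50 in PR-957, so its log2 fold change of 0.14 (95% confidence interval -0.59 to 0.87, adjusted p = 0.890) is imprecise. No H3K27me3 interval lay over CDK6, and the nearest was 737292 bp from the canonical TSS.

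The whole CDK6 gene, 232 kb long, held 8 separate H3K27ac loci, 2 H3K4me3 loci and 19 H3K4me1 loci, where a locus is a group of overlapping intervals and each is represented by its highest interval. Of the 19 H3K4me1 loci, 17 lie in introns only, and 7 also overlap an H3K27ac interval. The H3K4me1 loci span 85.7 kb, or 37.0% of the gene length, with a gap over the promoter. Over all overlapping intervals, 0 of 19 were called for H3K27ac, 0 of 5 for H3K4me3 and 0 of 69 for H3K4me1 in edgeR. Of all tested intervals, edgeR called 0.238, 0.226 and 1.94%. DESeq2 called 0 of the 4, 4 and 69 CDK6 intervals to which it gave an adjusted p. Of all intervals with one, it called 85 of 3726, 34 of 54635 and 26 of 106061. The CDK6 H3K27ac intervals away from the promoter had none. At an unadjusted p under 0.05 there were 0, 0 and 9 CDK6 intervals. The 9 H3K4me1 intervals, all with a positive fold change, belong to 3 of the 5 loci nearest the 3′ end. These 9 are 13.04% of the 69, against 16.2% of all H3K4me1 intervals at that cut. The other 2 loci lie among the 3, with overlapping libraries and log2 fold changes of 0.025 and 0.0073. The lowest adjusted p of the 69 was 0.0869.

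**Figure D2:**
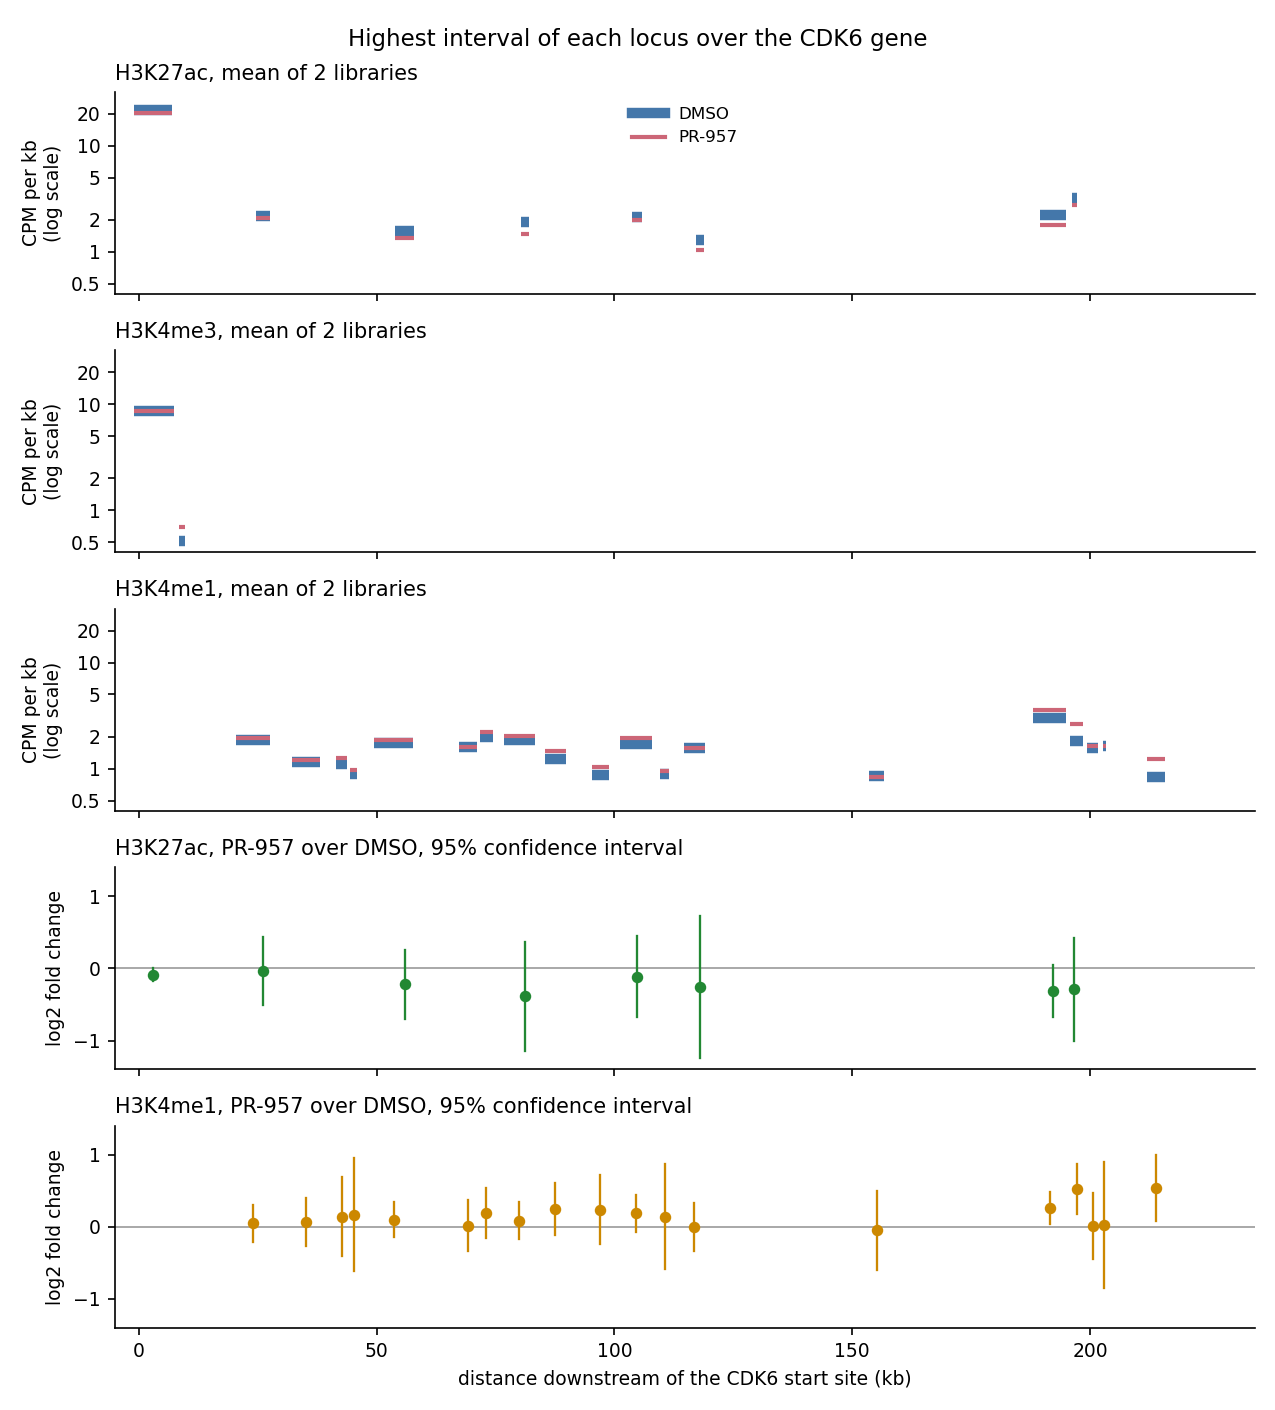
Highest interval of each locus over CDK6 against the distance from the canonical start site (kb). The upper 3 panels show the mean CPM per kb of 2 DMSO (thick) and 2 PR-957 (thin) libraries on a log axis, with 21.6 CPM per kb of H3K27ac at the promoter in DMSO and H3K4me1 only downstream of it. The lower 2 panels show the log2 fold change with its 95% confidence interval, below 0 at 8 of 8 H3K27ac loci and above 0 at 17 of 19 H3K4me1 loci, none past the threshold.

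The largest H3K4me1 signal of the gene lay about 192 kb downstream of the start, at chr7:92641536-92648609, in an intron. It was 22.6 and 19.8 CPM in the DMSO libraries and 26.7 and 24.3 CPM in the PR-957 libraries, and both PR-957 libraries stood above both DMSO libraries. Its log2 fold change was 0.26 (95% confidence interval 0.033 to 0.49, adjusted p = 0.227). The neighboring locus chr7:92637938-92640721 was 5.32 and 4.85 CPM in the DMSO libraries and 6.93 and 7.70 CPM in the PR-957 libraries. These libraries did not overlap either, with PR-957 higher, and the log2 fold change was 0.53 (95% confidence interval 0.18 to 0.88, adjusted p = 0.0869). Farther toward the 3′ end, chr7:92620885-92624515, which includes exon 6, was 3.15 and 2.97 CPM in the DMSO libraries and 4.49 and 4.44 CPM in the PR-957 libraries and had a log2 fold change of 0.54 (95% confidence interval 0.087 to 1.00, adjusted p = 0.205). H3K27ac at the first of these loci, chr7:92641697-92647184, was 11.5 and 12.9 CPM in the DMSO libraries and 10.9 and 8.87 CPM in the PR-957 libraries, with the PR-957 libraries below the DMSO libraries and a log2 fold change of -0.31 (95% confidence interval -0.68 to 0.052, adjusted p = 0.717). The 3 intervals with the highest DMSO level per kb were overlapping promoter intervals for H3K27ac, at 22.4 to 22.5 CPM per kb, and for H3K4me3, at 8.89 to 9.14 CPM per kb. For H3K4me1 the highest was chr7:92815002-92816222, at 3.22 CPM per kb, with a log2 fold change of -0.16 ± 0.23 (SE; adjusted p = 0.778), and the next 2 lie within the locus at 192 kb.

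Summed over the 19 loci, H3K4me1 on CDK6 was 134 and 121 CPM in DMSO and 146 and 140.1 CPM in PR-957, without overlap. Of these loci, 17 had a positive log2 fold change, with a median of 0.14, while 56.5% of all 34926 H3K4me1 loci with a tested interval were positive, with a median of 0.054. With library size scaling 19 of 19 were positive, against 62.7% of all loci. PR-957 stood above DMSO without overlap at 7 of the 19, against 27.7% of all H3K4me1 loci, and below at 0, against 19.2%. For H3K27ac, the 7 loci away from the promoter summed to 38.0 and 39.4 CPM in DMSO and 35.0 and 31.4 CPM in PR-957, again without overlap but with PR-957 lower. The highest interval of all 8 H3K27ac loci had a negative log2 fold change under TMM, median-of-ratios and library size scaling, with a median of -0.24 under TMM, while 46.5% of all H3K27ac loci were negative. Over all 19 overlapping intervals, 2 were positive, both in the locus 26.1 kb downstream, with 0.12 and 0.18 beside -0.041 in its highest interval, so the sign of that locus depends on the interval. PR-957 lay below DMSO without overlap at 4 of the 8, against 16.3% of all H3K27ac loci, and above at 0, against 18.8%. The loci of a gene are not independent replicates, and these counts carry no test.

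CDK4, the second kinase of the pair, lies on the minus strand of chromosome 12 from 57747727 to 57756013. Its H3K27ac interval, chr12:57750928-57753293, was 12.3 and 12.6 CPM in the DMSO libraries and 12.5 and 13.9 CPM in the PR-957 libraries. The libraries overlapped, and the log2 fold change was 0.095 (95% confidence interval -0.25 to 0.44, adjusted p = 0.953). A separate H3K27ac locus upstream, chr12:57754228-57756990, also holds the TSS of MARCHF9, and it had 30 and 52 counts in DMSO and 46 and 76 in PR-957 with a log2 fold change of 0.46 ± 0.30 (SE; adjusted p = 0.754). DMSO replicate 1 stood lowest there, and the treatments overlapped. The CDK4 intervals of H3K4me3, with a log2 fold change of -0.019, and of H3K4me1, with one of -0.059, span the TSS of both genes, so their counts cannot be assigned to CDK4 alone.

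Among the cyclins, the D-type cyclins CCND1 and CCND2 stood apart from the other members by carrying H3K27me3. They were the 2 members with H3K27me3 and H3K4me3 at a TSS together, a combination found in 2314 of 12790 coding genes with H3K4me3, or 18.1%. H3K27me3 over CCND1 (chr11:69633508-69643453) was 55.6 and 44.9 CPM in the DMSO libraries and 46.2 and 42.2 CPM in the PR-957 libraries. The highest library was DMSO replicate 1, and the treatments overlapped. The log2 fold change was -0.18 (95% confidence interval -0.37 to 0.0066, adjusted p = 0.349), from -0.35 to -0.020 over the alternatives. H3K27me3 over CCND2 (chr12:4268047-4276189) was 14.4 and 15.7 CPM in the DMSO libraries and 12.6 and 13.9 CPM in the PR-957 libraries, with both PR-957 libraries below both DMSO libraries and a log2 fold change of -0.18 (95% confidence interval -0.50 to 0.14, adjusted p = 0.680). The scaling bears on both values, since TMM in place of library size moved the median H3K27me3 log2 fold change over all intervals by -0.16. With library size alone the log2 fold change was -0.020 for CCND1 and -0.018 for CCND2, beside a median of 0.14 over coding genes.

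Among the intervals that represent a member, H3K4me1 at these 2 genes had the largest fold changes in size, without passing the test. At CCND2 (chr12:4269263-4274538) it was 8.03 and 8.53 CPM in the DMSO libraries and 6.23 and 5.91 CPM in the PR-957 libraries. Both PR-957 libraries lay clearly below both DMSO libraries, and the log2 fold change was -0.45 (95% confidence interval -0.78 to -0.12, adjusted p = 0.131), from -0.55 to -0.40 over the alternatives. A narrower interval inside it, chr12:4270800-4273771, had a log2 fold change of -0.55 ± 0.19 (SE; adjusted p = 0.0929), the lowest adjusted p of the 9 members' 39 H3K4me1 intervals. At CCND1 (chr11:69635466-69639529, which ends 1627 bp before the canonical TSS) H3K4me1 was 3.35 and 4.26 CPM in the DMSO libraries and 2.18 and 2.87 CPM in the PR-957 libraries. These rest on 99 and 102 counts in DMSO and 34 and 66 in PR-957, without overlap, and the log2 fold change was -0.56 (95% confidence interval -1.06 to -0.065, adjusted p = 0.234). The intervals that represent CCND2 also hold the TSS of ENSG00000285901. H3K27ac at CCND1 and CCND2 overlapped between treatments, with log2 fold changes of 0.038 and 0.023, and each changed sign when single libraries were left out. The other CCND2 H3K27ac intervals ran from -0.24 to 0.78, all with overlapping libraries. H3K4me3 at CCND1 was 17.5 and 15.7 CPM in the DMSO libraries and 18.5 and 18.03 CPM in the PR-957 libraries. Of the intervals that represent a member in any modification, it was the 1 with PR-957 above DMSO without overlap, with a log2 fold change of 0.13 (95% confidence interval -0.042 to 0.31, adjusted p = 0.810). The sign depends on the interval, since 2 narrower H3K4me3 intervals upstream of the canonical TSS had -0.24 and -0.23, with overlapping libraries. H3K4me3 at CCND2 was 30.7 and 29.0 CPM in the DMSO libraries and 31.3 and 30.7 CPM in the PR-957 libraries, with overlapping libraries and a log2 fold change of 0.052 (95% confidence interval -0.098 to 0.20, adjusted p = 0.939).

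**Figure D3:**
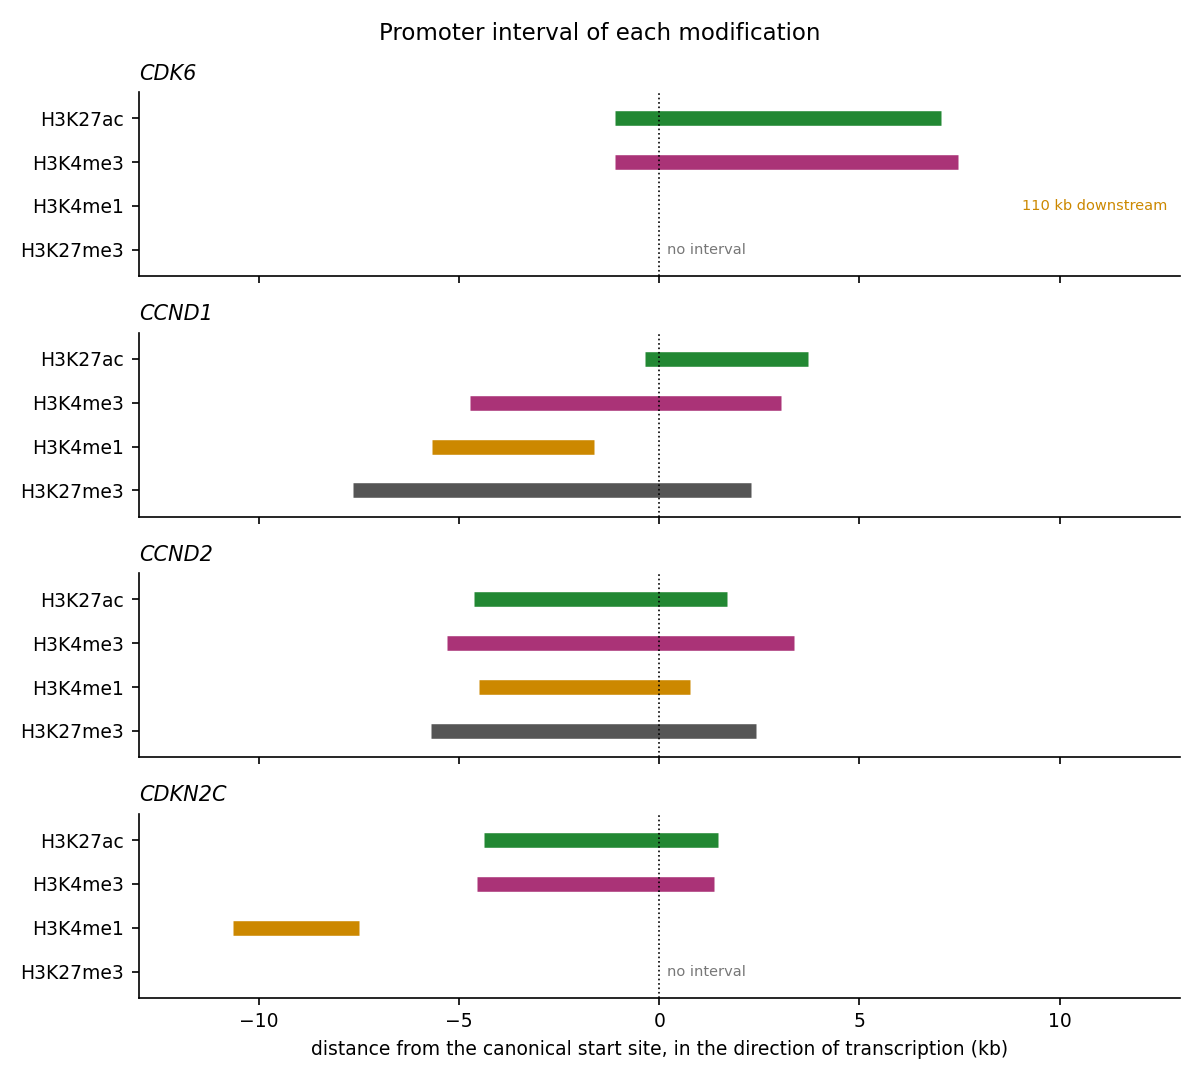
Extent of the interval that represents CDK6, CCND1, CCND2 and CDKN2C in each modification, against the distance from the canonical start site in the direction of transcription (kb). CCND1 and CCND2 carry H3K27me3 over most of the bases of H3K4me3, CDK6 and CDKN2C have none, and the H3K4me1 intervals of CDK6 and CDKN2C lie at other annotated start sites.

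CCND3, a further D-type cyclin, had no H3K27me3 interval, and the nearest lay 199402 bp from its canonical TSS. Its H3K4me3 interval (chr6:41933546-41943197) was 92.3 and 87.9 CPM in the DMSO libraries and 83.3 and 86.1 CPM in the PR-957 libraries, with PR-957 below DMSO and a log2 fold change of -0.089 (95% confidence interval -0.22 to 0.043, adjusted p = 0.840). H3K4me1 over the same promoter, chr6:41933142-41943095, was 53.7 and 50.7 CPM in the DMSO libraries and 46.9 and 43.1 CPM in the PR-957 libraries, again without overlap, and had a log2 fold change of -0.22 (95% confidence interval -0.45 to 0.010, adjusted p = 0.337). Its H3K27ac interval spans 12.9 kb and was 39.1 and 36.6 CPM in the DMSO libraries and 32.5 and 39.0 CPM in the PR-957 libraries, so that PR-957 replicate 1 was lowest and the treatments overlapped, and its log2 fold change was -0.076 ± 0.10 (SE; adjusted p = 0.923). The upstream CCND3 promoter, chr6:42048170-42051562, which is shared with TAF8, had 239 and 178 H3K27ac counts in DMSO and 217 and 305 in PR-957. There the normalized PR-957 values stood above the DMSO values, with a log2 fold change of 0.26 ± 0.14 (SE; adjusted p = 0.658), opposite in sign to the main promoter.

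CCNE1, which encodes cyclin E and activates CDK2, was the 1 member with no H3K4me1 interval at a TSS, as for 3802 of 20007 coding genes with H3K27ac and H3K4me3 alone. Its promoter window (chr19:29811741-29811990, GRCh38.p14, plus strand) is shown because it is the most CpG-rich of the member windows, which CCND1 and CCND2 lack. It holds 39 CpG, more than or as many as in 97.9% of RefSeq promoter windows. Capitals mark 7 GC boxes (GGGCGG) and 1 antioxidant response element core (TGACNNNGC), a motif held by 11.03% of windows, on either strand.
CCNE1: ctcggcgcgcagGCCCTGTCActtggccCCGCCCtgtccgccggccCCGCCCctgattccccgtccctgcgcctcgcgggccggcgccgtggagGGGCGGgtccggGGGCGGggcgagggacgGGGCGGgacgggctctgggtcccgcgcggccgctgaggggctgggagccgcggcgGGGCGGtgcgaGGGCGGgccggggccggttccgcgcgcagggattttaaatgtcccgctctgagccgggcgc
H3K4me3 at CCNE1 (chr19:29808777-29814589) was 26.0 and 27.003 CPM in the DMSO libraries and 25.6 and 23.1 CPM in the PR-957 libraries, with PR-957 below DMSO and a log2 fold change of -0.12 (95% confidence interval -0.28 to 0.034, adjusted p = 0.797). H3K27ac (chr19:29809466-29813985) was 24.7 and 23.4 CPM in the DMSO libraries and 22.5 and 26.3 CPM in the PR-957 libraries. PR-957 held both the lowest and the highest library, and the log2 fold change was 0.030 (95% confidence interval -0.22 to 0.28, adjusted p = 0.984).

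CDKN2C, an INK4 inhibitor of CDK4 and CDK6, had the highest H3K27ac level per kb of the members and the lowest unadjusted p for H3K27ac. The interval over its canonical TSS, chr1:50965864-50971702, was 134 and 146 CPM in the DMSO libraries and 125 and 126 CPM in the PR-957 libraries. Both DMSO libraries stood above both PR-957 libraries, and the log2 fold change was -0.15 (95% confidence interval -0.26 to -0.048, adjusted p = 0.316), from -0.21 to -0.095 over the alternatives. A separate upstream locus, chr1:50957395-50962776, covers another CDKN2C start site and that of FAF1, and it had 568 and 414 counts in DMSO and 336 and 546 in PR-957. After scaling these were 43.0 and 41.7 CPM in the DMSO libraries and 33.8 and 38.4 CPM in the PR-957 libraries, likewise without overlap, with a log2 fold change of -0.22 (95% confidence interval -0.41 to -0.033, adjusted p = 0.496). H3K4me3 at the canonical TSS was 46.3 and 47.0 CPM in the DMSO libraries and 43.1 and 44.4 CPM in the PR-957 libraries and had a log2 fold change of -0.090 (95% confidence interval -0.23 to 0.052, adjusted p = 0.853). The H3K4me1 interval of CDKN2C lies at the upstream start, with overlapping libraries and a log2 fold change of 0.059. RefSeq places the CDKN2C start at that upstream site, and its 250 bases (chr1:50960495-50960744, GRCh38.p14, plus strand) are shown as the window under this second H3K27ac locus, with 1 E-box (CACGTG) in capitals.
CDKN2C: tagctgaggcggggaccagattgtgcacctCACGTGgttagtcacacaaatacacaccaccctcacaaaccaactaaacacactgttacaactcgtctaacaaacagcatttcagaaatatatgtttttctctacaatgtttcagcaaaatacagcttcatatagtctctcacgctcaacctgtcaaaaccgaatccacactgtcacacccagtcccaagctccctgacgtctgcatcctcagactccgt
With 45.6% G or C and 7 CpG, it was the poorest in CpG of the 8 member windows, and it was the 1 of these without a GC box. The E-box occurred in 6.49% of all windows.

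CDKN1B, a CIP/KIP inhibitor, had the lowest unadjusted p of the members for H3K4me3. That interval, chr12:12712735-12722095, was 52.1 and 51.0 CPM in the DMSO libraries and 44.01 and 46.4 CPM in the PR-957 libraries. The PR-957 libraries were the lower pair without overlap, and the log2 fold change was -0.19 (95% confidence interval -0.33 to -0.048, adjusted p = 0.399), from -0.23 to -0.15 over the alternatives. H3K27ac on the same promoter, chr12:12713746-12722039, was 84.5 and 89.7 CPM in the DMSO libraries and 83.5 and 77.8 CPM in the PR-957 libraries, also without overlap, with a log2 fold change of -0.11 (95% confidence interval -0.24 to 0.019, adjusted p = 0.719). H3K4me1 upstream of the TSS was 3.79 and 4.60 CPM in the DMSO libraries and 3.34 and 3.30 CPM in the PR-957 libraries, on 52 to 112 counts, and its log2 fold change was -0.33 (95% confidence interval -0.79 to 0.12, adjusted p = 0.492). Its sign turned, to 0.015, when the interval with the highest count per kb was taken. Another CDKN1B start site upstream, shared with GPR19, ran the other way. H3K4me3 there (chr12:12695284-12697305) was 4.92 and 4.59 CPM in the DMSO libraries and 5.38 and 5.88 CPM in the PR-957 libraries, PR-957 above DMSO without overlap, with a log2 fold change of 0.24 ± 0.17 (SE; adjusted p = 0.833), and 0.21 to 0.24 over its 4 intervals. The H3K27ac intervals of that site were also higher in PR-957 without overlap, with log2 fold changes of 0.090 to 0.14. The CDKN1B window (chr12:12717118-12717367, GRCh38.p14, plus strand) is shown because it lies under the H3K4me3 interval with the lowest unadjusted p of the members. Capitals mark 2 CCAAT boxes (CCAAT), 1 GC box (GGGCGG) and 1 antioxidant response element core (TGACNNNGC), on either strand.
CDKN1B: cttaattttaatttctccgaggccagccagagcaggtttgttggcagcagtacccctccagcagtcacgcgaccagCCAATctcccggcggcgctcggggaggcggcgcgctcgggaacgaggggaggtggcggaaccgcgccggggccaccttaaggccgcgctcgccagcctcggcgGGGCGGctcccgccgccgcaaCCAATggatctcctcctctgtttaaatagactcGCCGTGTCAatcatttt
CCAAT occurred in 33.0% of all windows.

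CDKN1A, the other CIP/KIP inhibitor among the members, differed little between treatments in its active promoter marks. H3K27ac over 9.70 kb (chr6:36675888-36685584) was 45.0 and 43.3 CPM in the DMSO libraries and 45.1 and 44.5 CPM in the PR-957 libraries. These values overlapped, and the log2 fold change was 0.019 (95% confidence interval -0.16 to 0.20, adjusted p = 0.986). H3K4me3 was 48.7 and 46.7 CPM in the DMSO libraries and 47.8 and 48.6 CPM in the PR-957 libraries, with a log2 fold change of 0.014 (95% confidence interval -0.13 to 0.16, adjusted p = 0.983). H3K4me1 across the same region, chr6:36674451-36684318, was 39.97 and 37.1 CPM in the DMSO libraries and 33.8 and 34.2 CPM in the PR-957 libraries, so the PR-957 libraries were lower without overlap, with a log2 fold change of -0.18 (95% confidence interval -0.41 to 0.045, adjusted p = 0.440). CDKN2D, the other INK4 inhibitor, lies next to KRI1, and the interval that represents it holds the TSS of both genes in each of 3 modifications. H3K4me1 there (chr19:10564524-10570589) was 11.4 and 13.2 CPM in the DMSO libraries and 10.2 and 10.3 CPM in the PR-957 libraries. PR-957 was again the lower pair, and the log2 fold change was -0.26 (95% confidence interval -0.53 to 0.012, adjusted p = 0.336). A narrower H3K4me1 interval over the CDKN2D TSS without that of KRI1 had a log2 fold change of -0.28 ± 0.26 (SE; adjusted p = 0.639). For H3K27ac, the wide interval had a log2 fold change of -0.076 ± 0.10 (SE; adjusted p = 0.925), but the parts differ in sign. The 3 intervals over the CDKN2D TSS alone had 0.12 to 0.13, and those that hold the KRI1 TSS away from it -0.22 to -0.21. Of the CDKN2D intervals, chr19:10568176-10570429 was 15.7 and 16.3 CPM in the DMSO libraries and 18.9 and 16.4 CPM in the PR-957 libraries. The closest values, DMSO replicate 2 and PR-957 replicate 2, nearly met, and the log2 fold change was 0.13 (95% confidence interval -0.17 to 0.43, adjusted p = 0.910). H3K4me3, in which every interval holds both TSS, had a log2 fold change of -0.0081 ± 0.070 (SE; adjusted p = 0.991).

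Compared per length, the DMSO levels of the members differed far more than the treatments did. For H3K27ac the order, in CPM per kb (mean ± SD, n = 2 DMSO libraries), was CDKN2C (24.0 ± 1.41), CDK6 (21.6 ± 0.465), CDKN1B (10.5 ± 0.449), CDKN2D (6.47 ± 0.0148), CCNE1 (5.32 ± 0.201), CDK4 (5.26 ± 0.102), CDKN1A (4.55 ± 0.124), CCND3 (2.94 ± 0.139), CCND2 (2.50 ± 0.0885) and CCND1 (1.75 ± 0.246). The libraries of CCNE1 and CDK4 overlapped, and those of other neighbors in this order did not. For H3K4me3, CCND3, CDKN2D and CDK6 led with 9.34, 8.97 and 8.66 CPM per kb, each overlapping the next, and CCND2 and CCND1 were again last, with 3.45 and 2.14 CPM per kb. The CCND1 level of H3K27ac was above that of only 14.8% of coding genes with an interval, and that of CDKN2C above 99.7%. H3K4me1 was led by CCND3 (5.24 ± 0.217) and CDKN1A (3.91 ± 0.204), while CDKN2C, CCND1, CDK4, CDKN1B and CDK6 lay between 0.887 and 0.944 CPM per kb and overlapped one another as neighbors. H3K27me3 was 5.05 CPM per kb at CCND1 and 1.85 at CCND2. A level per kb depends on the width of the interval, and the widest, that of CCND3 for H3K27ac, is 12.9 kb.

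**Figure D4:**
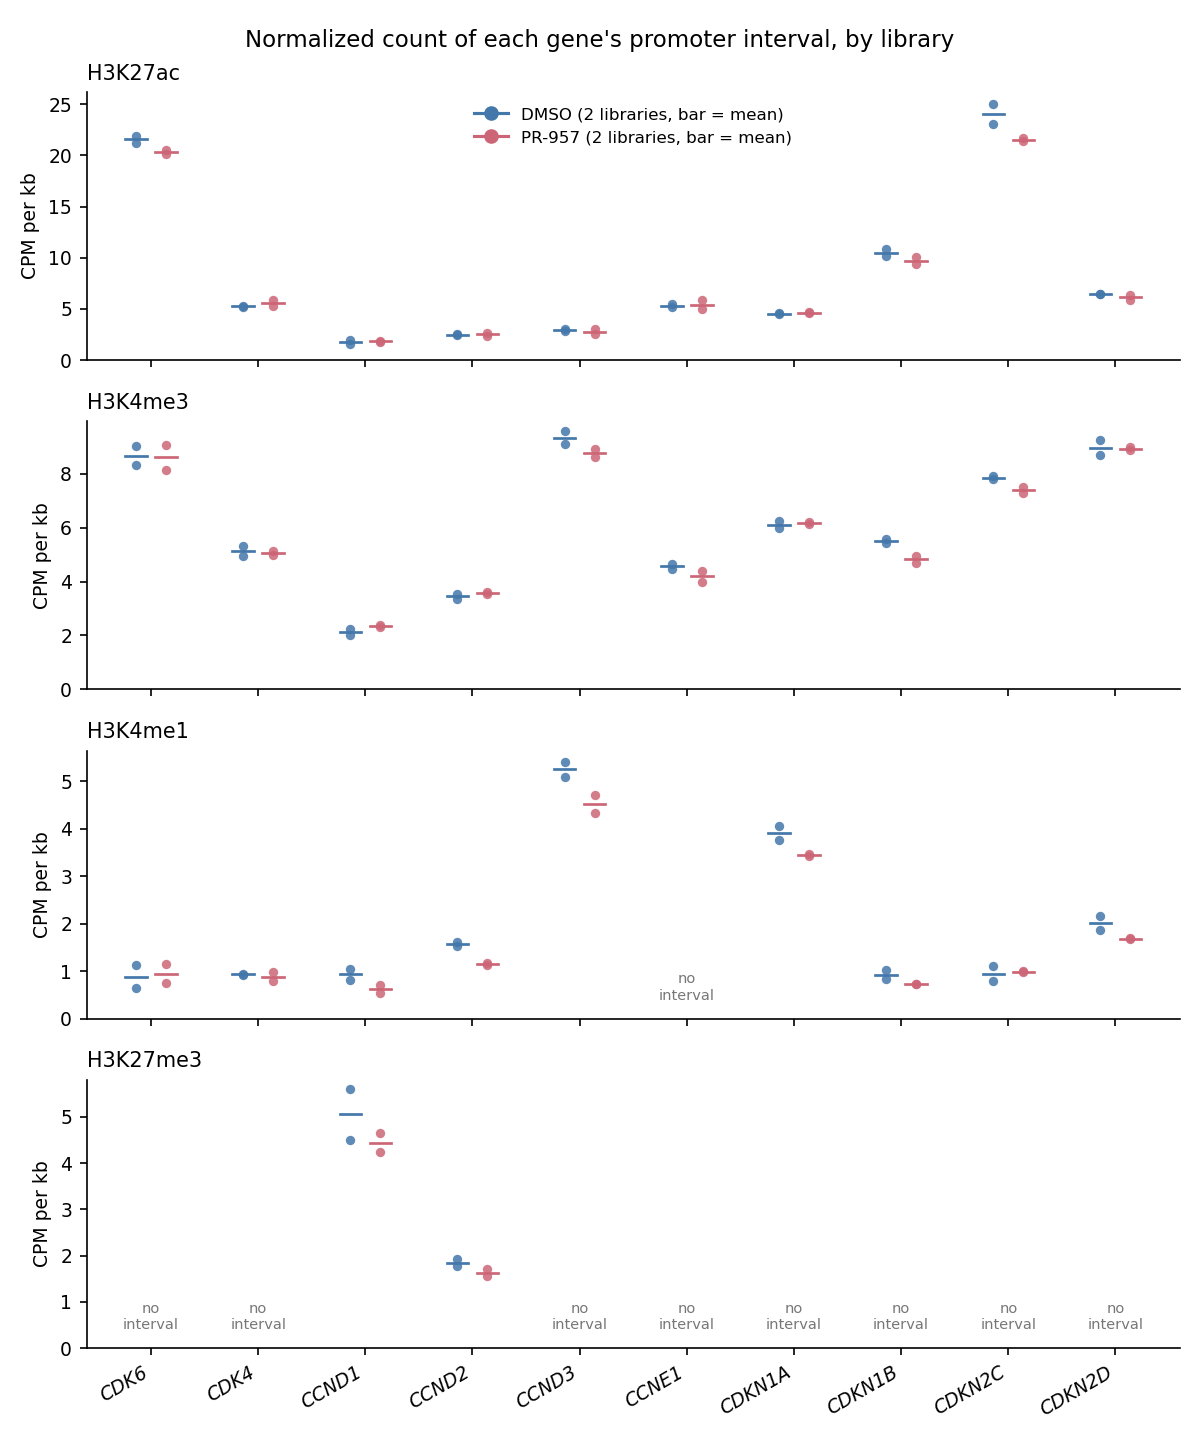
Normalized count per length (CPM per kb, vertical axis from 0, a separate scale for each modification) of the interval that represents each gene, with 1 point per library and a bar at the mean of 2. CDKN2C and CDK6 stand highest for H3K27ac, at 24.0 and 21.6 CPM per kb in DMSO, CCND1 and CCND2 are lowest for H3K27ac and H3K4me3, and only these 2 have an H3K27me3 interval.

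Of the 10 members, 8 matched a RefSeq promoter window, and CCND1 and CCND2 have no entry in that table. The CCND3 window (chr6:42048689-42048938) lies at its upstream promoter, and all 250 bases fall in an annotated CCND3 exon. Exons also overlap up to 137 bases of the CDK4 window, 96 of the CDKN1A window and 80 of the CDKN2D window. The GC box was found in 7 of the 8, against 42.3% of all windows, and CDK4 and CDKN2C held the E-box, CDK4 with 3 matches. None of the 8 held TATAAA, found in 11.1% of windows, or the E2F sites TTTGGCGC and TTTCGCGC, found in 0.553% and 0.469%. The motifs TGACGTCA (1.77% of windows), TGANTCA (6.60%) and CCGGAAGT (3.64%) were also absent. Such a match describes the letters of the window only, and both strands were searched.

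The members' neighbors in the pathway gave the same count. Of 34 other G1/S genes, which comprise the pocket proteins and E2F factors, other cyclins and kinases, further CDK inhibitors, factors that degrade G1 proteins, and the ubiquitin ligase MDM2, 0 of 29 were called for H3K27ac, 0 of 30 for H3K4me3, 0 of 18 for H3K4me1 and 0 of 1 for H3K27me3 in edgeR, beside the shares of coding genes called of 0.480, 0.219, 2.15 and 11.8%. DESeq2 called 0 of the 5, 29 and 17 genes with its adjusted p for H3K27ac, H3K4me3 and H3K4me1. Of the intervals of coding genes with one, it called 47 of 1280, 8 of 12291 and 1 of 8485. It gave no adjusted p to the 1 other G1/S gene with an H3K27me3 interval. At an unadjusted p under 0.05 there were 4, 3, 0 and 0 other G1/S genes, against 9.55, 8.04, 16.9 and 22.9% of coding genes. The median log2 fold change of the other G1/S genes was -0.014 for H3K27ac, -0.0070 for H3K4me3 and -0.028 for H3K4me1. The smallest p-values for H3K27ac belonged to CUL1, a subunit of the SCF ubiquitin ligase, the phosphatase gene CDC25A and MDM2. CUL1 was 35.3 and 32.2 CPM in the DMSO libraries and 37.1 and 43.3 CPM in the PR-957 libraries, with PR-957 higher without overlap and a log2 fold change of 0.26 (95% confidence interval 0.060 to 0.45, adjusted p = 0.417). CDC25A, whose product activates CDKs, was 14.8 and 12.1 CPM in the DMSO libraries and 10.1 and 10.4 CPM in the PR-957 libraries, with PR-957 lower without overlap and a log2 fold change of -0.40 (95% confidence interval -0.75 to -0.045, adjusted p = 0.528). MDM2 had a log2 fold change of 0.19 ± 0.089 (SE; adjusted p = 0.555).

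For H3K4me3 they were the repressor E2F6, with a log2 fold change of 0.27 ± 0.096 (SE; adjusted p = 0.315), FBXO31, with one of 0.21 ± 0.076 (SE; adjusted p = 0.364), and CKS1B, a cofactor in CDKN1B degradation, with one of -0.20 ± 0.075 (SE; adjusted p = 0.395). E2F6 was 13.7 and 13.3 CPM in the DMSO libraries and 16.3 and 16.3 CPM in the PR-957 libraries. Its libraries stood in 2 separate pairs, PR-957 above DMSO, while those of CKS1B, 36.4 and 39.9 CPM in the DMSO libraries and 33.6 and 32.9 CPM in the PR-957 libraries, stood the other way around. The FBXO31 interval is shared with MAP1LC3B and the CKS1B interval with SHC1, and the H3K4me1 interval of RB1 is shared with LPAR6. For H3K4me1 the smallest p-values were those of RB1, E2F5 and E2F6, with log2 fold changes of 0.26, 0.50 and 0.72, and adjusted p = 0.423 or above. CDKN1C, also a CIP/KIP inhibitor, was the 1 gene of the list with H3K27me3, on 18 and 30 counts in DMSO and 26 and 28 in PR-957, and its log2 fold change was -0.0041 ± 0.43 (SE; adjusted p = 0.998).

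Genes most like CDK6 were found by the Euclidean distance over log2 (CPM per kb + 0.1) in the 12 libraries of H3K27ac, H3K4me1 and H3K4me3, among 7190 other coding genes with an interval in all 3. The 4 H3K4me1 values of CDK6 in this measure are those of the sparse internal interval 109581 bp downstream, as its promoter has none. The nearest was VDAC2, at a distance of 0.716, followed by ENSG00000271793 and SYNCRIP, which share their intervals, at 0.753, and by EIF3B and SNX8, which also share theirs, at 0.797, beside a median of 5.42 over all genes compared. The DMSO level of VDAC2 was 18.3 CPM per kb for H3K27ac and 8.14 for H3K4me3, against 21.6 and 8.66 at CDK6.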

How the data were processed

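The files hold, for each modification, whole-number counts of reads or fragments that the authors deposited for 4 libraries on a shared list of intervals, without normalization. The submitters' processing notes name Bowtie2 2.2.5 for alignment (hg38), Picard 2.27.1 and SEACR 1.3. The counter, the handling of duplicates and the first base of the coordinates are stated in no source at hand.

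The filterByExpr function (minimum count 10) removed low intervals, TMM set the scale, and edgeR 4.0.16 in R 4.3.3 gave a two-sided quasi-likelihood test for each interval, with Benjamini-Hochberg adjustment at 0.05 over all tested intervals of a modification. TSS came from GENCODE release 44, read in Python 3.11.15. The intervals of a list overlap, so that neighboring values are not independent.

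The members and lists were chosen with earlier results of these data known, and 1 gene of the lists is not reported here. Text names each member in every modification, the 3 other G1/S genes with the smallest p per modification, for CDK6 the intervals past the threshold and the 3 with the highest DMSO level per kb, and the 5 genes most like CDK6. The 3 CDK6 loci with an unadjusted p under 0.05 and alternative promoters were named after their values were seen. Alternatives were DESeq2 1.42.0, median-of-ratios factors, library size only, no count filter, the replicate number as a block, each library left out, windows of 1 and 5 kb, the canonical TSS, the interval with the highest count per kb and, over CDK6, 1 interval per locus. The test was also run on simulated data, and the outcome is not given here. With 2 libraries against 2, an exact permutation test cannot give a p below 0.333.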

Additional observations from a re-analysis of the deposited data

How the results depend on the processing

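No member, no other G1/S gene and no interval over CDK6 was called in any modification under any alternative that gave it an adjusted p. DESeq2 gave none to 6 of 10 members, 24 of 29 other G1/S genes and 15 of 19 CDK6 intervals for H3K27ac. For H3K27me3 it gave none to CCND2 and CDKN1C. For H3K4me3 it gave one to 29 of 30 other G1/S genes and 4 of 5 CDK6 intervals. For H3K4me1 it gave one to 17 of 18 other G1/S genes. The number of called intervals depended on the tool and on each library. For H3K27ac, 177 intervals were called, 85 by DESeq2 and 20 to 89 with a library left out. For H3K4me3 they were 134, 34 and 28 to 170. For H3K4me1 they were 2099, 26 and 322 to 1756. For H3K27me3 they were 1882, 1278 and 1168 to 1517. Where a library is left out, 1 library remains in its group, and the lone sample is assumed to vary like the other group.

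With library size in place of TMM, the called H3K27me3 intervals went from 262 higher and 1620 lower in PR-957 to 1521 and 698, and those of H3K4me1 from 1341 and 758 to 1902 and 465. Samples share only a replicate number. With that number as a block, called intervals were 195 for H3K27ac, 161 for H3K4me3, 1904 for H3K4me1 and 1324 for H3K27me3. As a check of the pairing, the libraries within each treatment were subtracted in the order of their replicate numbers. The correlation of these differences between DMSO and PR-957 was -0.00886, 0.167, 0.00682 and -0.00687 for H3K27ac, H3K4me3, H3K4me1 and H3K27me3.

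Of 401 log2 fold changes of members under alternatives, 23 had the opposite sign. With the interval of highest count per kb these were CCND2 (-0.0088) and CCND3 (0.26) for H3K27ac, and CDK4 (0.019) and CDKN1B (0.015) for H3K4me1. With library size only they were CDK6 (0.0017) and CDKN2D (0.0025) for H3K4me3. The others came from leaving out a library, over which H3K27ac ranged from -0.089 to 0.20 at CCND1, -0.066 to 0.096 at CCND2, -0.22 to 0.040 at CCND3, -0.095 to 0.13 at CCNE1 and -0.0065 to 0.052 at CDKN1A. H3K4me3 ranged from -0.088 to 0.066 at CDK6, -0.069 to 0.031 at CDK4, -0.015 to 0.045 at CDKN1A and -0.051 to 0.037 at CDKN2D. H3K4me1 ranged from -0.23 to 0.58 at CDK6, -0.25 to 0.079 at CDK4 and -0.15 to 0.33 at CDKN2C. CDK6 and CDKN2C have no H3K4me1 interval at the canonical TSS.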

Other observations

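The results rest on 2 libraries per treatment, so a difference of the size seen at most promoters cannot be separated from the spread between libraries. An interval that did not pass the test is not shown to be equal between treatments, and the confidence intervals give the range the data allow. Counts rest on peaks that overlap each other, and wide intervals shared with a neighboring gene, as for H3K4me3 at CDK4 and CDKN2D, cannot be assigned to 1 of them. Histone marks were measured here, and transcripts, proteins and cell cycle phases were not. The total count over the intervals differs between treatments for H3K4me3 and H3K4me1, and the share of even counts differs in each modification. H3K27me3 and H3K4me1 values depend on the scaling.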
